A study of Homo sapiens with 12 samples.

Results

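The cluster of miR-143 and miR-145 was followed in extracellular vesicles (EV) released along the differentiation of human induced pluripotent stem cells (hiPSC) into cardiomyocytes. Its members are the 4 mature miRNA cut from the MIR143 and MIR145 hairpins, hsa-miR-143-3p, hsa-miR-143-5p, hsa-miR-145-5p and hsa-miR-145-3p, taken by name from the 1133 miRNA of the count table. The prefix hsa is left out below. Small RNA was sequenced from 12 EV preparations of the established line iPS(IMR90)-4, a single clone, with 3 independent cultures for each of 4 groups. Medium for hiPSC-EV was collected at day 0 after 24 h, from undifferentiated cells. CPC-EV came from cardiac progenitors at day 6 after 72 h. CMi-EV came from immature cardiomyocytes at day 15 after 48 h, and CMm-EV from mature cardiomyocytes at day 35 after 48 h, both grown as aggregates, the latter in glucose-free medium with galactose and fatty acids. Stage and medium change together at every step, so their parts in any difference cannot be told apart. Conditioning time changes with them from hiPSC-EV to CPC-EV and from CPC-EV to CMi-EV. Culture format changes as well, from monolayer to aggregates, between CPC-EV and CMi-EV. Where these change too, their parts cannot be told apart either. RNA of a whole preparation was measured, in which fewer releasing cells of a type and less RNA per cell cannot be told apart.

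miR-143 and miR-145 are made from a shared primary transcript, whose processing leaves a short duplex from each hairpin. Either strand of a duplex, the 5p or the 3p arm, can be loaded into an Argonaute protein, and the loaded arm finds its targets mainly through its seed. The cluster is best known from smooth muscle, where serum response factor (SRF) and its coactivator myocardin drive it and where it favours the contractile state. It is also active in the embryonic heart, and miR-145 is known to repress pluripotency factors in differentiating human embryonic stem cells.

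The sequences of the 4 arms are shown because each arm carries a seed of its own, so that arms of the same hairpin address different targets. All 4 names matched the RefSeq table (GRCh38.p14, plus strand of chromosome 5), and capitals mark the seed, bases 2 to 8 from the 5′ end. The arms lie at chr5:149428944-149428965 (miR-143-5p), chr5:149428978-149428998 (miR-143-3p), chr5:149430661-149430683 (miR-145-5p) and chr5:149430699-149430720 (miR-145-3p).
hsa-miR-143-3p: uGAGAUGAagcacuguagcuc
hsa-miR-143-5p: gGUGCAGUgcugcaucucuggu
hsa-miR-145-5p: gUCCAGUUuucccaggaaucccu
hsa-miR-145-3p: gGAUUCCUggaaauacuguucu

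Between any pair of members, the seeds differed at 4 to 6 of 7 positions, the fewest between the arms of miR-143. In the same table, miR-6088 and miR-4770 share the seed of miR-143-3p, and neither has a value here. The hairpins are shown with their mature arms in capitals, since the results turn on which arm of each was counted. MIR143 spans chr5:149428918-149429023 and MIR145 spans chr5:149430646-149430733, with 1622 bases between them on the same strand.
MIR143: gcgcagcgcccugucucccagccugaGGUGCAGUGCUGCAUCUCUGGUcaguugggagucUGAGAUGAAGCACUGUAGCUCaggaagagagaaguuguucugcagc
MIR145: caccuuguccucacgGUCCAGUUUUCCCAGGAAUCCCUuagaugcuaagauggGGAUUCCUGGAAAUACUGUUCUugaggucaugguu

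In GENCODE release 44, both hairpins lie inside CARMN, a long noncoding RNA gene on the plus strand with 25 annotated transcripts. Of these, 3 extend over each hairpin, and in all 3 the MIR143 hairpin is exonic and the MIR145 hairpin is intronic.

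The miRNA counts of a library, the depth behind every value here, ran from 703418 in hiPSC-EV 1 to 6272456 in CMm-EV 2. Levels are given as CPM of all miRNA counts after TMM scaling (trimmed mean of M-values) of all 12 libraries, a scaling that assumes most miRNA do not change. A zero was read as anything from none to 3 counts, a limit equal to 3.48 CPM for hiPSC-EV 1, 1.19 for hiPSC-EV 2 and 0.640 for hiPSC-EV 3. Such limits, and the intervals given for shares, cover counting error only, because PCR copies are not independent molecules. Libraries of the same group differed beyond it, since chi-square divided by its degrees of freedom was 51.6 to 712 for such pairs.

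The cluster went from a minor to a leading component of the vesicle miRNA. Its 4 arms together made up 0.0363% ± 0.00971 of miRNA counts for hiPSC-EV (mean ± SD, n = 3 here and for each group below), then 0.699% ± 0.376 for CPC-EV. Their part was 5.33% ± 1.35 for CMi-EV and reached 10.8% ± 0.589 for CMm-EV. Within the cluster, miR-143-3p gave the most counts in each of the 12 libraries. By counts it ranked from 97 to 116 among miRNA for hiPSC-EV, from 24 to 34 for CPC-EV and from 5 to 10 for CMi-EV. In CMm-EV it held rank 3 or 4. In the edgeR quasi-likelihood F-test over the 4 groups (FDR 0.05), all 4 members differed, against 50.7% of 367 tested miRNA. The adjusted p was 1.43e-07 for miR-143-3p, 9.15e-07 for miR-143-5p, 0.000451 for miR-145-5p and 0.000873 for miR-145-3p. A share near 50% means that a difference somewhere along the course was common among miRNA, so the order of the levels is described arm by arm.

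miR-143-3p, the arm known for its high level in smooth muscle, had 206, 273 and 438 CPM in hiPSC-EV 1, 2 and 3, and 2052, 2255 and 4359 CPM in CPC-EV. It reached 34346.5, 32865.7 and 60159 CPM in CMi-EV and 131999, 164800 and 204367 CPM in CMm-EV. No library of a later group was below a library of an earlier group, and CMi-EV 3 stood above the other CMi-EV libraries. The group means were 306 ± 119, 2889 ± 1277, 42457 ± 15348 and 167055 ± 36236.5 CPM.

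miR-143-5p, the opposite arm, had no count in the 3 hiPSC-EV libraries. It had 34.1, 13.6 and 33.5 CPM in CPC-EV, 416, 635 and 540 CPM in CMi-EV, and 1257, 1259 and 1116 CPM in CMm-EV. The groups did not overlap, in the same order as for miR-143-3p, although CPC-EV values rest on 55 to 90 counts per library. Set against the limit of 3 counts in hiPSC-EV 1, the highest of the 3 limits, the mean in CPC-EV was at least 7.77-fold higher, that in CMi-EV at least 152-fold and that in CMm-EV at least 348-fold.

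miR-145-5p, for which the pluripotency and smooth muscle targets of miR-145 are mainly described, had 31.4, 4.37 and 39.4 CPM in hiPSC-EV, the lowest from 11 counts in hiPSC-EV 2. It had 138, 79.1 and 89.2 CPM in CPC-EV, 515, 520 and 563 CPM in CMi-EV, and 617, 807 and 730 CPM in CMm-EV. CMi-EV and CMm-EV lay close together, with means of 533 ± 26.3 and 718 ± 95.7 CPM, and that neighbouring pair was not separated by the test given below. Scaled instead to all reads of the library (RPM, as deposited), the means were 341 ± 17.7 and 343 ± 51.1.

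miR-145-3p had 0, 48.1 and 87.6 CPM in hiPSC-EV and 1236, 1263 and 1978 CPM in CPC-EV. It had 7496, 6913 and 6893 CPM in CMi-EV and 3728, 5711 and 6915 CPM in CMm-EV. Unlike the other arms, it had its highest group mean in CMi-EV (7100 ± 342 CPM, against 5451 ± 1609 in CMm-EV), and the ranges of these groups overlapped. On the RPM scale, the CMi-EV mean was 4552 ± 345 and the CMm-EV mean 2564 ± 568, with no overlap.

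**Figure D1:**
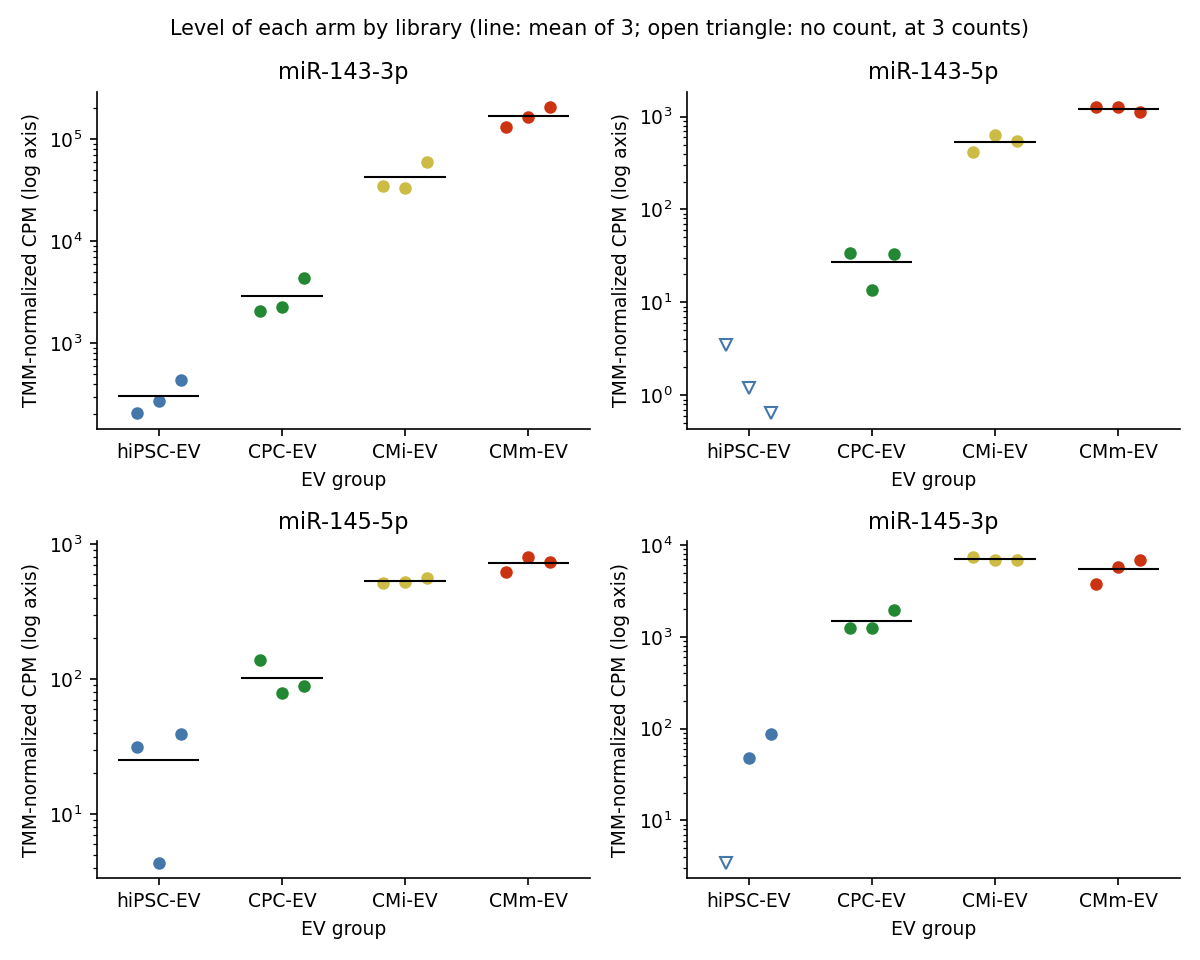
TMM-normalized CPM of each arm (log axis) in the 4 EV groups, with a point per library, a line at the mean of 3, and an open triangle at the level of 3 counts where a library had none. miR-143-3p climbs from 206 CPM in hiPSC-EV 1 to 204367 CPM in CMm-EV 3. The means of miR-145-5p lie close in CMi-EV (533 CPM) and CMm-EV (718 CPM). That of miR-145-3p is 7100 CPM in CMi-EV and 5451 CPM in CMm-EV.

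The step from pluripotent cells to cardiac progenitors raised 3 of the 4 arms. miR-143-3p rose by a log2 fold change of 3.69 ± 0.39 (SE; adjusted p = 0.000909), and miR-145-3p by 5.48 ± 0.91 (adjusted p = 0.00815). miR-143-5p, without counts in hiPSC-EV, was also called (adjusted p = 0.00795). miR-145-5p was higher in each CPC-EV library than in each hiPSC-EV library, with a log2 fold change of 2.43 ± 0.85, and was not called (adjusted p = 0.0824). These 3 members called higher compare with 11.5% of 338 tested miRNA called higher (FDR up to 0.05, log2 fold change from 1 upward), in the edgeR quasi-likelihood test used for each pair of groups with Benjamini-Hochberg adjustment. miR-143-5p, without counts in hiPSC-EV, and miR-145-3p, without counts in hiPSC-EV 1, passed the filter through CPC-EV. For them being tested and being called higher are not independent, so the count describes the arms without testing the cluster. With a term for the replicate number miR-143-5p was not called (adjusted p = 0.133, in a range from 1.67e-06 over the alternatives that kept all libraries), and miR-145-5p was called by DESeq2 (adjusted p = 0.00682) and with dispersions from all 12 libraries (0.0194), in a range of 0.00682 to 0.117. The adjusted p of miR-145-5p ran from 0.0848 to 0.192 when a library was left out.

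From progenitors to immature cardiomyocytes, all 4 arms rose, against 14.4% of 292 tested miRNA called higher. The log2 fold change was 3.85 ± 0.36 for miR-143-3p (adjusted p = 0.000784), 4.25 ± 0.44 for miR-143-5p (0.00114), 2.35 ± 0.33 for miR-145-5p (0.00272) and 2.24 ± 0.23 for miR-145-3p (0.000880). Each CMi-EV library was above each CPC-EV library for every arm. Groups without overlap were common among the tested miRNA here, including some that were not called, so this does not single out the cluster. Whether the arms differ in their change was not tested. With dispersions from all 12 libraries, miR-145-3p was not called (log2 fold change 2.22, adjusted p = 0.0585), and its adjusted p ran from 3.07e-16 to 0.0585 over the alternatives that kept all libraries.

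Between immature and mature cardiomyocytes both arms of miR-143 rose again, miR-143-3p by a log2 fold change of 1.82 ± 0.32 (adjusted p = 0.0125) and miR-143-5p by 1.03 ± 0.23 (adjusted p = 0.0272). Neither arm of miR-145 was called, with 0.27 ± 0.24 for miR-145-5p (adjusted p = 0.481) and -0.53 ± 0.26 for miR-145-3p (adjusted p = 0.232). Whether the hairpins differ in this step was not tested. The 2 members called higher compare with 6.48% of 247 tested miRNA.

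The values of this step depend on scaling more than those of the earlier steps, as the median over all tested miRNA shows, a log2 fold change of -0.30 with TMM, -0.20 with the size factors of DESeq2, -0.91 by miRNA totals alone and -0.60 by the totals behind RPM. Across these scalings miR-143-3p stayed called, with 1.82, 1.93, 1.22 and 1.54. miR-143-5p had 1.03, 1.14, 0.48 and 0.78, and its adjusted p of 0.329 and 0.0673 under the latter pair missed the threshold. miR-145-5p had 0.27, 0.38, -0.31 and 0.01, so that its direction flipped by miRNA totals alone. miR-145-3p had -0.53, -0.44, -1.18 and -0.83, and by miRNA totals alone it was called lower (adjusted p = 0.00305). Without CMm-EV 2, miR-143-3p had an adjusted p of 0.0506 and miR-143-5p one of 0.0873, and miR-143-5p also missed the threshold without CMm-EV 1 (0.0526) or CMm-EV 3 (0.0518) and with the replicate number as a term (0.0811).

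Across the whole course, mature cardiomyocytes against pluripotent cells, all 4 arms were called higher, against 16.1% of 336 tested miRNA. miR-143-5p and miR-145-3p passed the filter through CMm-EV, and miR-145-5p had 4.37 CPM in hiPSC-EV 2, under the limit of 5 CPM. Being tested and being called higher are therefore not independent, and this count describes the arms without testing the cluster. miR-143-3p had a log2 fold change of 8.76 ± 0.37 (adjusted p = 2.87e-05), miR-145-3p of 6.50 ± 1.11 (0.00585) and miR-145-5p of 4.54 ± 0.73 (0.00304). miR-143-5p, with no count in hiPSC-EV, had an adjusted p of 0.000135. The median over all tested miRNA was -1.53 in this comparison with TMM, -1.20 with the size factors of DESeq2, -1.97 by miRNA totals alone and -1.40 by the totals behind RPM. Relative to the median of -1.53, the 3 fold changes were 10.29, 8.03 and 6.07 in the order given. In the earlier steps the TMM medians were -0.27 (CPC-EV versus hiPSC-EV) and -0.05 (CMi-EV versus CPC-EV), with a range over the other scalings of -0.37 to -0.10 and of -0.52 to -0.03. The 4 comparisons share groups, so their values are not independent of each other.

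**Figure D2:**
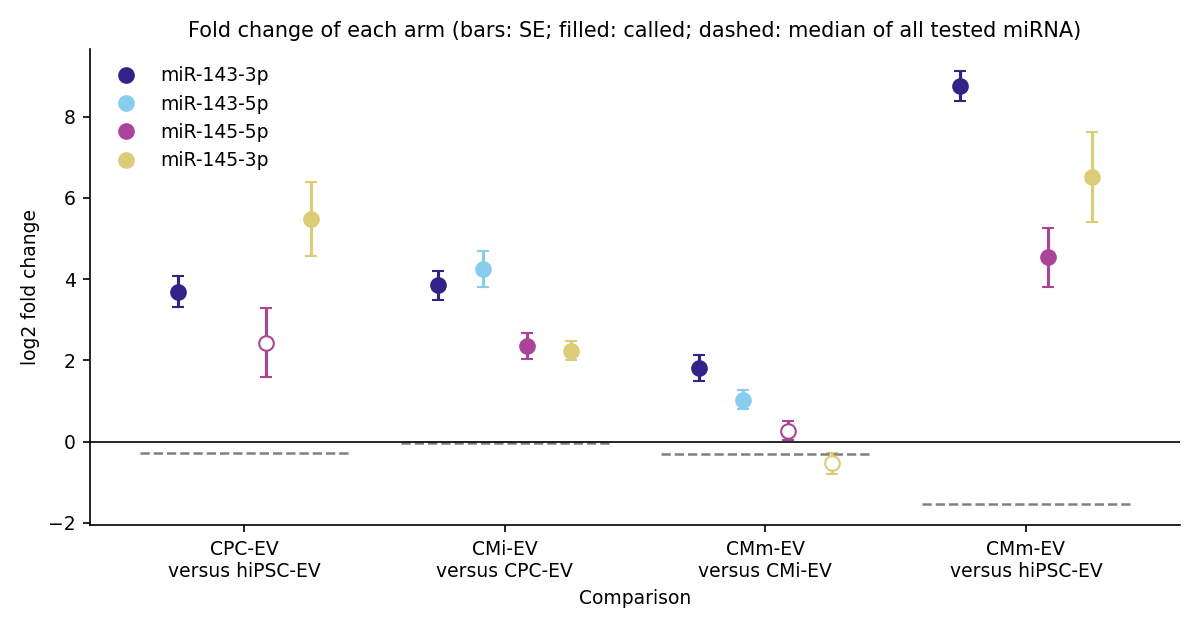
log2 fold change of each arm with its SE in the 4 comparisons, filled where called, with the median of all tested miRNA dashed. miR-143-5p is left out where hiPSC-EV had no count, and in CMm-EV versus CMi-EV miR-145-5p stands at 0.27, which becomes -0.31 by miRNA totals alone, and miR-145-3p at -0.53.

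The arms of each hairpin were then compared inside each library, which needs no scaling between libraries. Whether the arms were captured equally was not tested, so these are ratios of counts. For miR-143 the 3p arm gave most of the counts. miR-143-3p exceeded miR-143-5p by 60.1, 165 and 130 times in CPC-EV 1, 2 and 3, by 82.6, 51.8 and 111 times in CMi-EV and by 105, 131 and 183 times in CMm-EV. In hiPSC-EV, 0 of 177, 0 of 688 and 0 of 2054 miR-143 counts came from the 5p arm, which allows a share of up to 1.69%, 0.436% and 0.146%, against 1.00% ± 0.557 in CPC-EV. The first of these limits lies above the CPC-EV mean, so a lower 5p share was not detectable at the depth of hiPSC-EV 1, and the others lie below the lowest CPC-EV value of 0.601%.

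The log2 ratio of miR-143-3p to miR-143-5p averaged 6.76 ± 0.76 in CPC-EV, then 6.29 ± 0.56 in CMi-EV and lastly 7.09 ± 0.40 in CMm-EV. The groups overlapped, and no difference over the 3 groups was found (two-sided exact permutation test of the F statistic over 280 arrangements of 9 libraries, p = 0.318, adjusted over 3 ratios 0.318). CMm-EV minus CPC-EV was 0.33 on the log2 scale and -0.10 without CPC-EV 1, so the direction rests on that library.

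For miR-145 the 3p arm also had more counts, in 11 of 12 libraries. miR-145-3p exceeded miR-145-5p by 8.95, 16.0 and 22.2 times in CPC-EV, by 14.6, 13.3 and 12.2 times in CMi-EV and by 6.04, 7.08 and 9.47 times in CMm-EV. In hiPSC-EV the libraries disagreed. hiPSC-EV 1 had 27 counts of miR-145-5p and 0 of miR-145-3p, hiPSC-EV 2 had 11 and 121, and hiPSC-EV 3 had 185 and 411. The 5p share of the counts of both arms was 100% (exact Clopper-Pearson 95% interval 87.2% to 100%), 8.33% (4.23% to 14.4%) and 31.0% (27.3% to 34.9%) in these libraries, intervals that do not overlap.

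The 5p share of miR-145 averaged 6.75% ± 2.96 in CPC-EV, a close 6.99% ± 0.560 in CMi-EV and a higher 12.0% ± 2.34 in CMm-EV. As log2 ratios of miR-145-5p to miR-145-3p these are -3.87 ± 0.66, -3.74 ± 0.12 and -2.89 ± 0.33. Each CMm-EV library was above each CMi-EV library, while CPC-EV 1 overlapped with CMm-EV. Over the 3 groups the difference did not pass (two-sided exact permutation test over 280 arrangements, p = 0.0786, adjusted p = 0.118). CMm-EV minus CPC-EV was 0.99 on the log2 scale and 1.34 without CPC-EV 1, where the adjusted p was 0.0149, the lowest in a range of 0.0149 to 0.311 over libraries left out.

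Among other miRNA, 17 hairpins had at least 10 counts of both arms in each CPC-EV, CMi-EV and CMm-EV library, miR-143 and miR-145 included. The 3p arm was ahead in all 9 of these libraries for 9 hairpins, the 5p arm for 5, and 3 were mixed. By the size of the change in arm ratio from CPC-EV to CMm-EV, miR-145 ranked 4 and miR-143 ranked 12 of the 17, where the median was 0.61 and the largest, for miR-25, was 1.43 on the log2 scale. This ranking is a description, with no test.

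The hairpins did not keep a fixed proportion to each other. miR-143-3p exceeded miR-145-5p by 6.56, 62.5 and 11.1 times in hiPSC-EV, by 14.9, 28.5 and 48.9 times in CPC-EV, by 66.7, 63.2 and 107 times in CMi-EV, and by 214, 204 and 280 times in CMm-EV. CMm-EV stood apart from the other groups, and hiPSC-EV and CPC-EV overlapped, with the highest hiPSC-EV ratio in the library with 11 counts of miR-145-5p. The log2 ratios were 4.02 ± 1.68, 4.78 ± 0.86, 6.26 ± 0.42 and 7.85 ± 0.25. They differed over the 4 groups (two-sided exact permutation test over 15400 arrangements of 12 libraries, p = 0.00708, adjusted p = 0.0212), with CMm-EV 3.83 above hiPSC-EV, a 14.2-fold difference. Without CPC-EV 2, CMm-EV 1, CMm-EV 2 or CMm-EV 3 the adjusted p was 0.0674, 0.0567, 0.0522 and 0.0824, with a difference between 3.69 and 3.91. Without hiPSC-EV 1, 2 or 3 the difference was 3.16, 4.77 and 3.55 (exact permutation, adjusted p = 0.0271, 0.000974 and 0.0448), so its size rests on hiPSC-EV libraries with few counts of miR-145-5p.

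After the counts had been seen, miR-143-3p was also set against miR-145-3p, the miR-145 arm with more counts. That ratio was 1.66, 1.79 and 2.20 in CPC-EV, 4.58, 4.75 and 8.73 in CMi-EV, and 35.4, 28.9 and 29.6 in CMm-EV. These groups did not overlap. In hiPSC-EV 2 and 3 it was 5.69 and 5.00, above CPC-EV, so along the whole course this ratio first fell and then climbed. The share of miR-143-3p in the counts of the 4 arms followed the same course, with 82.7% ± 4.74 for hiPSC-EV, a low of 63.1% ± 4.13 for CPC-EV, again 83.0% ± 4.603 for CMi-EV and a high of 95.8% ± 0.241 for CMm-EV.

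**Figure D3:**
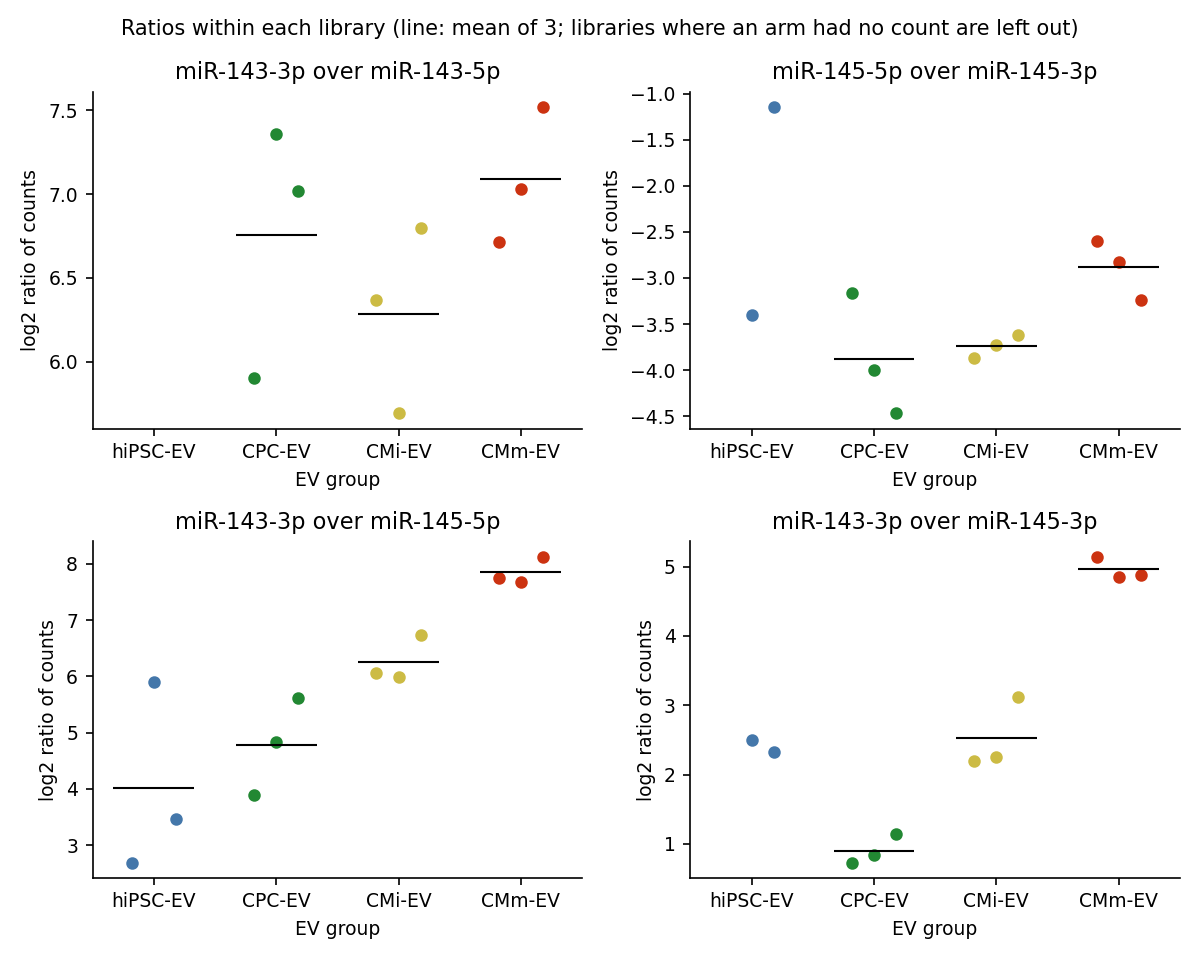
log2 ratios of counts within each library, with a point per library and a line at the mean of 3. Libraries where an arm had no count are left out, and the ratio of miR-143-3p to miR-145-3p separates CPC-EV (mean 0.90), CMi-EV (2.52) and CMm-EV (4.96) without overlap.

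**Figure D4:**
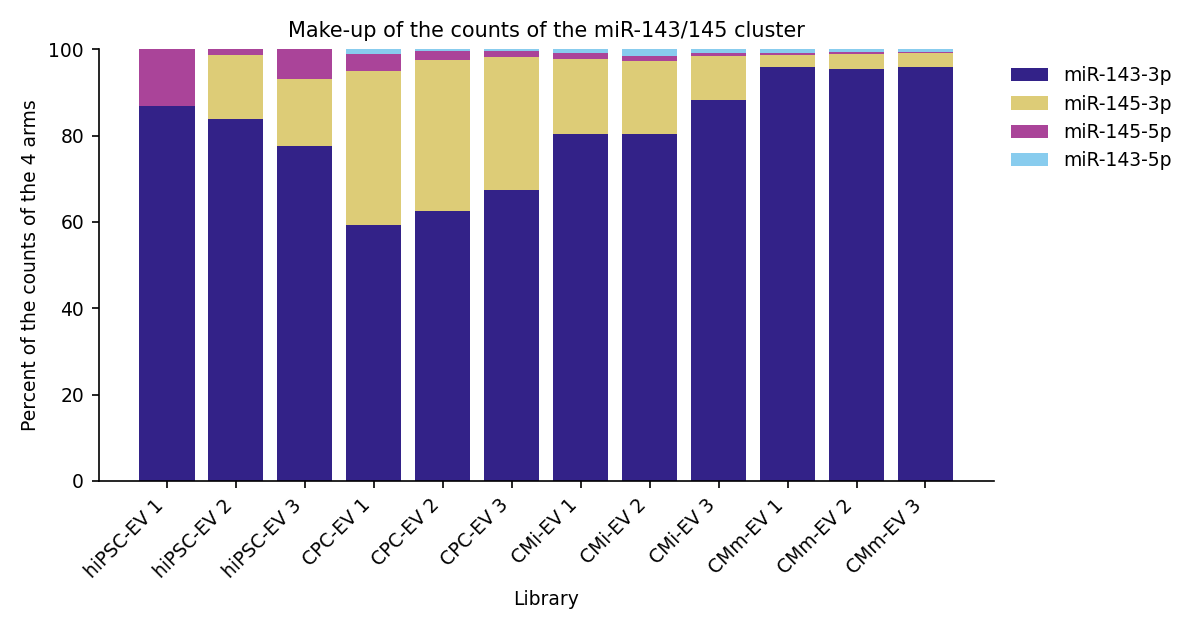
Percent of the counts of the 4 arms taken by each arm, in each of the 12 libraries. miR-145-3p takes its largest part in CPC-EV, where miR-143-3p holds 63.1% on average, and a small one in CMm-EV, where miR-143-3p holds 95.8%.

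The miRNA whose levels ran most like those of the members were found by Pearson's r over the 12 libraries on log2(CPM + 1), a description in which libraries of a group share their stage. Nearest to miR-143-3p were miR-24-3p (r = 0.986), miR-125a-5p (0.984), its own partner miR-143-5p (0.983), miR-99a-5p (0.977) and miR-125b-5p (0.973). Nearest to miR-145-5p were miR-143-5p (0.951), miR-24-3p (0.945), miR-99a-5p (0.944), the muscle miRNA miR-1-3p (0.941) and miR-143-3p (0.938). miR-145-3p was not among the nearest of either, and its r with miR-145-5p was 0.802.

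These companions moved by different amounts. miR-24-3p went from 235 ± 42.0 CPM in hiPSC-EV to 481 ± 59.9, 1055 ± 53.3 and 1916 ± 264 CPM in the later groups, by stage. miR-125a-5p went from 7013 ± 684 to 22788 ± 4644, 58671 ± 6703 and 212157 ± 47795 CPM. miR-99a-5p began at 35.3 ± 5.51 CPM and had 1248 ± 869, 36986 ± 6899 and 47965 ± 7535 CPM in the later groups, with most of its gain before CMm-EV.

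Lists of miRNA linked to muscle, to mural and fibroblast cells, to endothelium and to pluripotency were read beside the cluster. Of the SRF-linked muscle list, miR-1-3p, miR-133a-3p, miR-133a-5p and miR-133b, 2 of 2 tested were called higher in CPC-EV versus hiPSC-EV (median log2 fold change 4.17, against -0.27 over all tested miRNA), 4 of 4 in CMi-EV versus CPC-EV, and 0 of 4 in CMm-EV versus CMi-EV (median 0.53 against -0.30). Of 8 cardiac miRNA, which include 3 of these and miR-208a-3p, miR-208b-3p, miR-499a-5p and both arms of miR-490, 2 of 2, 6 of 6 and 0 of 8 were called higher in the same comparisons, and 8 of 8 in CMm-EV versus hiPSC-EV. Over all tested miRNA, these shares called higher were 11.5%, 14.4%, 6.48% and 16.1%. Most cardiac miRNA were near 0 in hiPSC-EV and passed the filter through a group in which they were high, so that being tested and being called higher are not independent, and the counts describe the list without testing it. miR-1-3p, an activator of muscle differentiation, was the most abundant of both lists.

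Inside the cardiomyocyte groups, the sum of the SRF-linked list was set by miR-1-3p, which had 49586, 72062 and 17343 CPM in CMi-EV 1, 2 and 3, and 31653, 47078 and 203320 CPM in CMm-EV. Without it, the list had 2628, 2887 and 2554 CPM in CMi-EV, close together, and 5384, 3128 and 3872 CPM in CMm-EV, where miR-143-3p had another order of libraries.

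After the counts had been seen, CMi-EV 3 was found to stand apart in miR-199a-5p and miR-199b-5p, of the mural and fibroblast list. The shared value of miR-199a-3p and miR-199b-3p also spread widely in CMi-EV (219 ± 366 CPM). Others of the list did not, among them miR-22-3p (2679 ± 202 CPM) and miR-221-3p (102 ± 15.4 CPM), so the list as a whole did not set CMi-EV 3 apart. miR-199a-5p had 0, 0 and 874 CPM in CMi-EV 1, 2 and 3, and miR-199b-5p, at 294 to 428 CPM in hiPSC-EV, had 34.4, 0 and 743 CPM. In CMm-EV, where miR-143-3p was higher still, miR-199a-5p had 26.7, 51.7 and 52.1 CPM. Without CMi-EV 3, the log2 fold changes from CPC-EV to CMi-EV were 3.56 for miR-143-3p, 4.26 for miR-143-5p, 2.34 for miR-145-5p and 2.29 for miR-145-3p, all called. From CMi-EV to CMm-EV they were then 2.19, 1.14, 0.36 and -0.53, with the miR-143 arms called and the miR-145 arms not.

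The 17 miRNA of the mural and fibroblast list had 15 values, with miR-199a-3p and miR-199b-3p sharing theirs. In CPC-EV versus hiPSC-EV 1 of 10 tested was called higher, miR-125b-5p, and 4 lower (median -1.50), in CMi-EV versus CPC-EV 4 of 9 higher and 2 lower (median 1.72), in CMm-EV versus CMi-EV 0 of 9 either way (median 0.30), and in CMm-EV versus hiPSC-EV 5 of 11 higher and 3 lower (median -0.23, against -1.53 over all tested). Of all tested miRNA, 16.0%, 14.0%, 10.1% and 37.5% were called lower in these comparisons, in the order given, and 11.5%, 14.4%, 6.48% and 16.1% higher. The sum of the list without miR-100-5p, its most abundant miRNA and not limited to those cells, was 26348, 24959 and 29913 CPM for hiPSC-EV, and 6376, 7311 and 6500.2 for CPC-EV. It was 42561, 47804 and 68088 CPM for CMi-EV and, last, 69259, 79729 and 80904 for CMm-EV. What remains is again mostly from single miRNA, miR-222-3p in hiPSC-EV (14751 ± 921 CPM, against 493 ± 224 in CMm-EV) and miR-125b-5p in CMm-EV (65149 ± 5617 CPM, against 316 ± 13.8 in hiPSC-EV), so the sum stands for no shared course of the list. The list's own part in the course of the cluster was not tested.

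The 3 endothelial miRNA, led by miR-126-3p, had summed levels of 76.6, 91.0 and 128 CPM in hiPSC-EV and of 0, 21.5 and 26.03 CPM in CMm-EV. None was called higher in the 4 comparisons, and 1 of 2 tested was called lower in CMm-EV versus hiPSC-EV, miR-126-5p (log2 fold change -3.66, edgeR, adjusted p = 0.0345). The 8 pluripotency miRNA, led by miR-302b-3p, had a median log2 fold change of -0.28 in CPC-EV versus hiPSC-EV, against -0.27 over all tested miRNA, where miR-302b-3p itself was lower (-1.11, edgeR, adjusted p = 0.00463). None was called higher in any of the 4 comparisons, 2 of 8 tested were lower in CPC-EV versus hiPSC-EV, 5 of 8 in CMi-EV versus CPC-EV, 3 of 5 in CMm-EV versus CMi-EV and 7 of 7 in CMm-EV versus hiPSC-EV, beside the shares called lower given above. Their sum was 172747, 179136 and 211958 CPM in hiPSC-EV, and 71714, 80056 and 49649 in CPC-EV. It was 5563, 6831 and 4080.1 CPM in CMi-EV, against 305, 133 and 110.04 in CMm-EV.

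**Figure D5:**
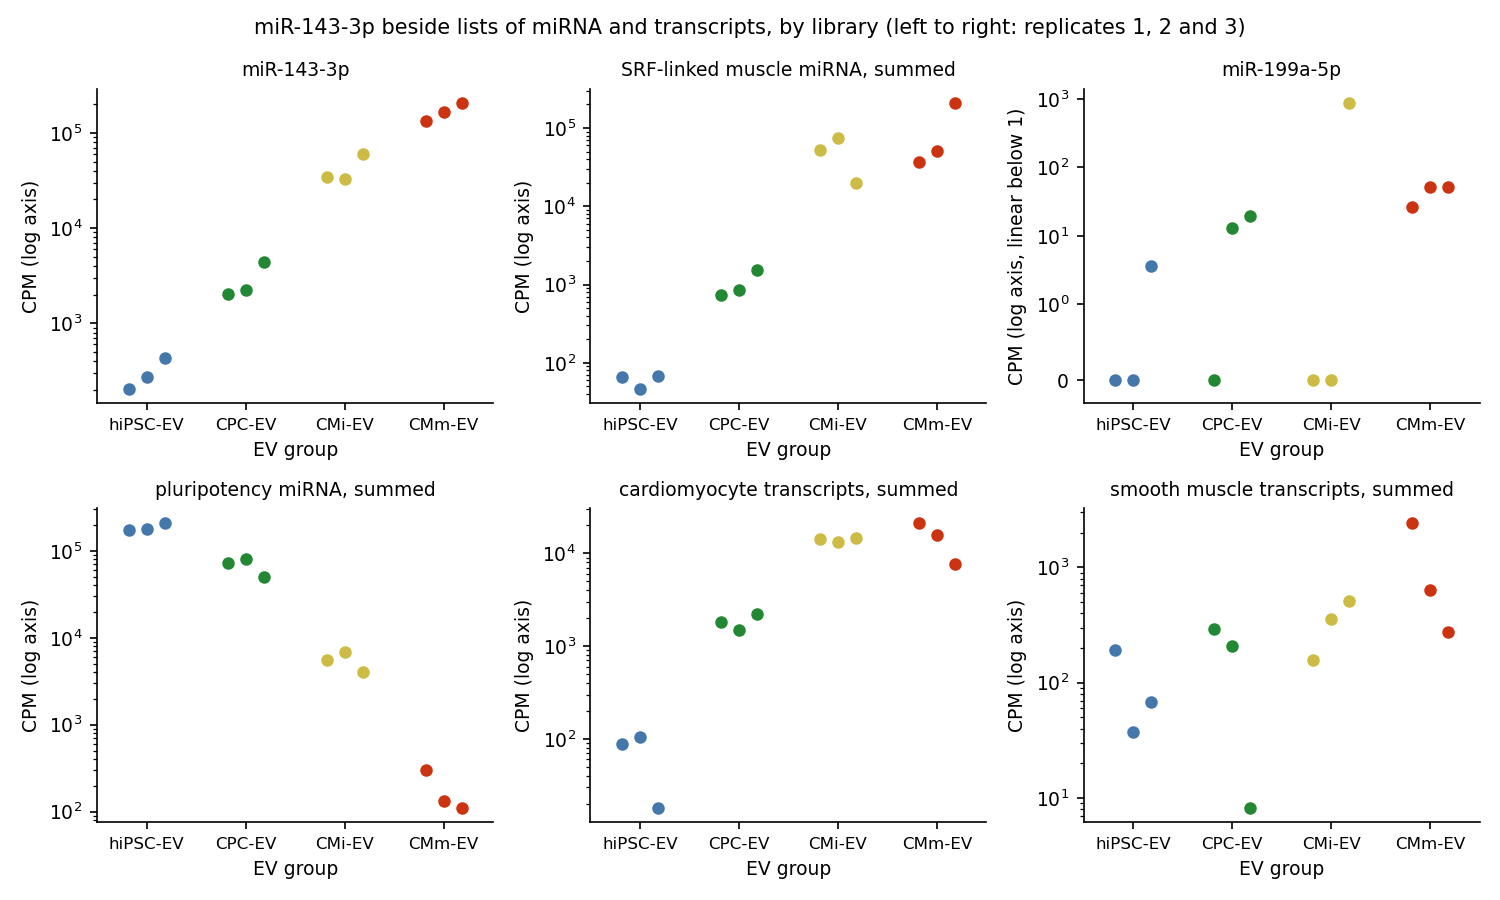
CPM of miR-143-3p and miR-199a-5p and summed CPM of 4 lists (log axes, linear below 1 for miR-199a-5p) in each library, on the scale of all miRNA counts after TMM for miRNA and of all gencode counts for transcripts. CMi-EV 3 is high in miR-199a-5p (874 CPM) and low in the sum of the muscle list (19897 CPM), which is mostly miR-1-3p, and the smooth muscle transcripts scatter within groups.

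The fragments of messenger and long noncoding RNA in the same libraries (gencode transcripts, as deposited) were read for the host gene, its regulators and lineage markers, in CPM of 131423 to 1908539 gencode counts per library. The host transcript CARMN had 39.5 counts in CPC-EV 2 and at most 2 in each of the other 11 libraries, under the floor of 3 counts, so whether it followed the miRNA was not detectable at this depth. MYOCD, encoding myocardin, had no count in hiPSC-EV, and 168, 81.4 and 206 CPM in CPC-EV. It had 393, 344 and 331 CPM in CMi-EV, against 0, 0.477 and 98.7 in CMm-EV, where the highest value, from 29 counts, lies above the lowest of CPC-EV. It was called in the edgeR F-test over the 4 groups (adjusted p = 0.0271). SRF, too sparse for the test, had 46, 51 and 0 counts in CPC-EV, against 32, 26 and 0 in CMi-EV, and in CMm-EV it had 15, 1 and 0, which for CMm-EV 1 is 114 CPM, its highest level.

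Of the host and regulator list, 4 of 6 tested genes were called (MYOCD, NOTCH3, RBPJ and SMAD4), against 26.2% of 2814 tested genes. The last 3, of the Notch and transforming growth factor pathways, had no count in CMi-EV and CMm-EV. Genes absent from some groups passed the filter through others, so counts of called genes, here and below, describe a transcript list without testing it. The number of called genes depends on filter and sample. It was 57 in place of 738 under the filter of edgeR's own function, 401 without hiPSC-EV 2 and 434 without hiPSC-EV 3. The genes tested change with these settings too, so the shares were not compared.

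Smooth muscle transcripts were sparse. Of 13 genes 1 passed the filter, MYL9, which was not called (adjusted p = 0.192). The summed level was 192, 37.7 and 68.1 CPM in hiPSC-EV, and 290.4, 210 and 8.18 in CPC-EV. It was 159, 358 and 511 CPM in CMi-EV, against 2451, 641 and 274 in CMm-EV, where CMm-EV 1 had 131423 gencode counts in all. Of 5 pericyte genes with a value 1 was tested and called, NOTCH3, already counted in the regulator list and without counts in CMi-EV and CMm-EV. Of 10 fibroblast genes 1 of 5 tested was called, against 26.2% of all tested genes, PDGFRA, with 41.1, 38.4 and 21.6 CPM in CPC-EV, against 96.5, 64.4 and 6.85 in CMi-EV, and no count in hiPSC-EV and CMm-EV. In CMi-EV 1, 2 and 3 the fibroblast sum, led by FN1, was 627, 773 and 436 CPM and the pericyte sum 0, 2.00 and 73.0 CPM, of which MCAM gave 63.9 in CMi-EV 3 from 14 counts. PLN, which cardiomyocytes also express, gave 237 CPM of the smooth muscle sum in CMi-EV 3. In CMi-EV 1, 2 and 3, MYL9 had 121, 130 and 4.56 CPM and ACTA2 had 0, 142 and 0. TPM2 and CALD1 were highest in CMi-EV 3, with 1.45, 38.0 and 132 CPM and with 0, 0 and 95.8 CPM. Of the fibroblast list, VIM had 11.2, 44.0 and 141 CPM and COL1A1 had 85.3, 228 and 0. Outside the fibroblast sum of CPC-EV, most of these sums rest on few counts of a gene. The fibroblast sum of CMi-EV held 147.5, 216 and 63 counts of FN1 in CMi-EV 1, 2 and 3. The smooth muscle sum of CMm-EV 1 was spread over several genes, with 76 counts of MYL9, 52.1 of TPM2, 43 of SMTN and 33 of DES. There 3 of the 13 genes had no count, against 6 in CMm-EV 2 and 7 in CMm-EV 3. A source for the miRNA of CMi-EV 3 was not tested. Of 5 endothelial genes with a value, KDR was tested and not called (adjusted p = 0.172). TBX18, the epicardial gene with a value, had 1 count in CMi-EV 1.

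Cardiomyocyte transcripts were read in the same way. Of 9 tested genes 7 were called, against 26.2% of all tested genes, among them TTN, the giant sarcomere protein (adjusted p = 2.55e-05), and MYH6, a cardiac myosin (8.35e-05), while ACTN2 and RYR2 were not (both 0.134). Most were near 0 in hiPSC-EV and passed the filter through groups in which they were high, so the count describes the list without testing it. The F-test gives no direction. The summed level, most of it from TTN, was 87.8, 105 and 17.9 CPM in hiPSC-EV, and 1822.5, 1497 and 2199 in CPC-EV. It was 14212, 13151.5 and 14550 CPM in CMi-EV, against 21441, 15876 and 7687 in CMm-EV. Of 8 pluripotency transcripts 6 were called, against the same share, and POU5F1, a factor that keeps cells pluripotent, was at 112, 153 and 164 counts in hiPSC-EV, 57.4, 0.78 and 0 in CPC-EV, and 0 in CMi-EV and CMm-EV. LIN28A, the most abundant, had a mean of 184 CPM in hiPSC-EV and a higher 334 in CPC-EV, then 45.6 in CMi-EV and 0 in CMm-EV. NANOG had 52.0, 18.8 and 5.34 CPM in hiPSC-EV and 0, 49.6 and 3.40 in CMm-EV. The others called, L1TD1, TDGF1 and DNMT3B, had their highest mean in hiPSC-EV.

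Of 18 reported target genes of miR-143 or miR-145 with a value, 7 were tested. The most abundant, TPM4, a tropomyosin, was not called (adjusted p = 0.620). FSCN1, which encodes the actin-bundling protein fascin, was called (adjusted p = 0.0293), as were 26.2% of all tested genes, and had 25, 24.8 and 78.8 counts in hiPSC-EV, 53.8, 17.7 and 55 in CPC-EV, and none in the 6 cardiomyocyte libraries. Those 6 libraries had 131423 to 499729 gencode counts each, and whether the miRNA bear on these fragments was not tested.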

How the data were processed

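Small RNA of 12 EV preparations was analysed as 4 groups of 3. According to the study's methods, the authors processed reads with exceRpt on hg38, and the submitters' processing notes name edgeR 3.24.0. The expected counts deposited by the authors were rounded, and RPM deposited by the authors gave library totals. The deposited gencode counts were summed by gene symbol.

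Pairs of groups were scaled within their own 6 libraries and tested two-sided with edgeR 4.0.16 (R 4.3.3), keeping miRNA that reached 5 CPM throughout the 3 libraries of a group. SEs came from the fit's weighted information, none where a group had no count. Ratios used counts plus 0.5. Alternatives were scaling, filter, DESeq2 1.42.0, dispersions, a replicate term, pseudocount, rounding and libraries left out. Steps were tested on simulated data. Members and lists were chosen with earlier results of these data known. Named are the members, the 5 miRNA most like miR-143-3p or miR-145-5p, seed sharers, the hairpin whose arm ratio changed most, list members that were tested, most abundant or a large part of a sum, and the host CARMN and SRF. Figures used matplotlib 3.10.9.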

Additional observations from a re-analysis of the deposited data

How the results depend on the processing

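Of 474 alternatives over 33 results, 439 left the result the same, 28 made it weaker, 5 stronger and 2 reversed it, and the cause was not tested. With edgeR, miRNA called in CMm-EV versus CMi-EV went from 41 to 27 with filterByExpr and to 20 to 60 with a library left out, and gencode genes called over the groups from 738 to 57 and to 401 to 838. The log2 fold change of miR-145-5p in CPC-EV versus hiPSC-EV was 2.59 with DESeq2 and 2.29 with all 12 libraries fitted, both called, and that of miR-145-3p in CMi-EV versus CPC-EV was 2.22 in the latter fit, not called. In CMm-EV versus CMi-EV, miR-143-3p ran from 1.62 to 2.19 and miR-143-5p from 0.99 to 1.19 with a library left out. miR-143-5p was not called by miRNA totals (0.48), by totals behind RPM (0.78), without a filter (1.06) or with all 12 fitted (1.18). By miRNA totals miR-145-5p was reversed (-0.31) and miR-145-3p was called lower (-1.18). With a library left out, the difference in the miR-143 arm ratio ran from -0.10 (reversed) to 0.63, in the miR-145 arm ratio from 0.69 to 1.34, and in miR-143-3p to miR-145-5p from 3.16 to 4.77. With miR-145-3p in place of miR-145-5p, an alternative chosen after seeing the data, hiPSC-EV was not entered. CMm-EV minus CPC-EV was then 4.06, which is not the same contrast.

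A replicate block, a term for the replicate number, lowered the calls to 39 from 93 in CPC-EV versus hiPSC-EV, to 17 from 41 in CMm-EV versus CMi-EV and to 472 from 738 for gencode genes. With it miR-143-5p was not called in CPC-EV versus hiPSC-EV (edgeR, adjusted p = 0.133) or CMm-EV versus CMi-EV (log2 fold change 1.04, edgeR, adjusted p = 0.0811). Libraries with the same number were not alike beyond their groups (r between -0.12 and 0.10). A single r for each pair could miss a link that touches few miRNA, so a pairing by number was not excluded.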
